A study of Mus musculus with 20 samples.

Results

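Cutaneous squamous cell carcinomas (cSCC) of the mouse were compared with hyperplastic (thickened) skin over every small RNA in one deposited sequencing table. The comparison used 10 of the series' 20 libraries, chosen by the lesion named in the labels: 5 of cSCC (libraries 1, 2, 3, 4 and 6) and 5 of hyperplastic skin (libraries 1, 2, 5, 7 and 8). All were skin biopsies from the inbred mouse strain FVB/N, and both groups had been treated with DMBA, a mutagen that starts skin tumours, and PMA, a phorbol ester that promotes them. The agents were therefore shared and the lesion differed. The other 10 libraries, 5 of acetone-treated healthy skin and 5 of papillomas (benign tumours of DMBA/PMA-treated skin), entered the common estimate of spread, and their levels are given where they add to a result. The sources used here give no doses, treatment times, ages or sexes. Nothing in the labels says that the 5 biopsies of a group came from separate mice, so the p-values measure the spread between biopsies.

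MicroRNAs (miRNAs) are short RNAs cut from hairpin precursors. Each hairpin has a 5′ and a 3′ arm, and either can give a mature miRNA, written 5p and 3p. A miRNA lowers the stability and translation of messenger RNAs that pair with its seed, which is bases 2 to 8 from its 5′ end. In skin, miR-205 and miR-203 are known as miRNAs of basal and of differentiating keratinocytes, and miR-21 and miR-31 are widely described as raised in squamous tumours. Other miRNAs mark the remaining cells of a biopsy: miR-223 myeloid cells, miR-1a and miR-133 striated muscle, miR-143 and miR-145 smooth muscle, and miR-126 endothelium. The libraries also hold pieces of transfer RNA (tRNA), small nucleolar RNA (snoRNA, guides for chemical marks on ribosomal RNA), ribosomal RNA and spliceosomal small nuclear RNA (snRNA).

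The miRNAs on which the comparison turned are shown by a few mature sequences, with the seed in capitals. The sequences are from RefSeq (GRCm38.p6), in which 240 of the 293 tested miRNAs were matched by name. The first set holds abundant miRNAs that were higher in cSCC, the second a pair with 1 seed that was lower, and the third a family whose members share a seed and moved in opposite directions. The last 2, miR-203-3p and miR-193b-3p, are abundant miRNAs that were lower and share a seed with none of the others shown.
miR-21-5p: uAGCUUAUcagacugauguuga
miR-31-5p: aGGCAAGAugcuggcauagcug
miR-223-3p: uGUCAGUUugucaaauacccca
miR-210-3p: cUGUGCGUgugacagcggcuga
miR-7a-5p: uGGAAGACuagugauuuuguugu
miR-221-3p: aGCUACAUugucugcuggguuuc
miR-222-3p: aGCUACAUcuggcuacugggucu
miR-204-5p: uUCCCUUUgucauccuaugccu
miR-211-5p: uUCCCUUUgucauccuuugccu
miR-99a-5p: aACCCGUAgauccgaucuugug
miR-100-5p: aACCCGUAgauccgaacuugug
miR-99b-5p: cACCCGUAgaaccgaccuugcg
miR-203-3p: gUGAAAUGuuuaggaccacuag
miR-193b-3p: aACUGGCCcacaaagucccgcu
The seed GCUACAU is common to miR-221-3p and miR-222-3p, and UCCCUUU to miR-204-5p and miR-211-5p. Counted from the 5′ end, miR-204-5p and miR-211-5p differ by 1 base, A17U, and miR-100-5p and miR-99a-5p by 1 base, A16U. How reads that match several miRNAs were assigned is not given in the sources used here, so the levels of such near-identical members are uncertain one by one.

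Depth differed between the groups without overlap. The cSCC libraries held 1614803 to 2903657 mature miRNA counts and the hyperplastic libraries 3142228 to 6904298. Scarce miRNAs did not follow that difference: the 590 whose mean was 20 counts or fewer summed to 3598 to 5602 counts in cSCC libraries and 3226 to 6911 in hyperplastic ones. Features were therefore tested only at a mean of at least 50 CPM over the 20 libraries. CPM is the usual depth-scaled count, here relative to the mature miRNA counts of a library. For the limit it was taken before TMM scaling. The levels printed below are CPM after TMM scaling on the miRNAs that passed the limit. This left 570 of 2127 features, of which 293 were mature miRNAs, 186 tRNA entries, 60 snoRNAs and 16 mitochondrial tRNAs. A feature abundant in only some groups could pass this limit through those groups. All columns carry 1 common prefix, so no batch could be separated. Hyperplastic libraries 7 and 8 stood apart from the other 3 of their group in several miRNAs named below, and without them 90 features were higher and 84 lower in cSCC.

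Among the features called, more miRNAs were higher than lower in cSCC (77 against 62), more tRNA entries lower than higher (59 against 14) and more snoRNAs higher than lower (23 against 2). The orders of the miRNA and snoRNA calls turned round with total miRNA counts (51 higher and 121 lower miRNAs, 7 higher and 9 lower snoRNAs). Of the 570 features, 44.2% passed an adjusted p of 0.05 in edgeR's quasi-likelihood test, 120 (21.1%) higher and 132 (23.2%) lower in cSCC. Of the 293 mature miRNAs, 139 (47.4%) passed, 77 (26.3%) higher and 62 (21.2%) lower, and the median log2 fold change of the 293 was 0.08. In 103 miRNAs (35.2%) the 5 cSCC and 5 hyperplastic libraries did not overlap, with all cSCC libraries above in 52 (17.7%) and below in 51 (17.4%). Over all features the same held for 185 (32.5%), 77 (13.5%) above and 108 (18.9%) below. These percentages are the background against which the members of each group below are counted.

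Directions were set by the scaling and apply relative to the typical abundant miRNA. With total miRNA counts and no factors, all features moved by -0.50 (median, log2 scale), and the calls were 71 higher and 261 lower, so that 21.4% of the calls were higher against 47.6%. TMM factors from all miRNAs that passed edgeR's filterByExpr moved them by -0.62, with 63 higher and 273 lower (18.8% higher). Without the limit of 50 CPM the split turned the other way, with 575 higher and 162 lower of 2127 features (78% higher), and under filterByExpr alone with 477 and 174 of 1522 (73.3%). At a limit of 200 CPM it was 57 higher and 96 lower of 330 (37.3%). Before any scaling, all 5 raw counts in cSCC were below all 5 in hyperplastic skin for 62 of the 62 lower miRNAs. Shallower cSCC libraries favour that outcome by themselves, so it is not separate support for the lower calls. The mean raw count was higher in cSCC for 46 of the 77 higher miRNAs. All 5 cSCC raw counts were above all 5 hyperplastic ones for 11 of those 77, in libraries that were shallower throughout.

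**Figure D1:**
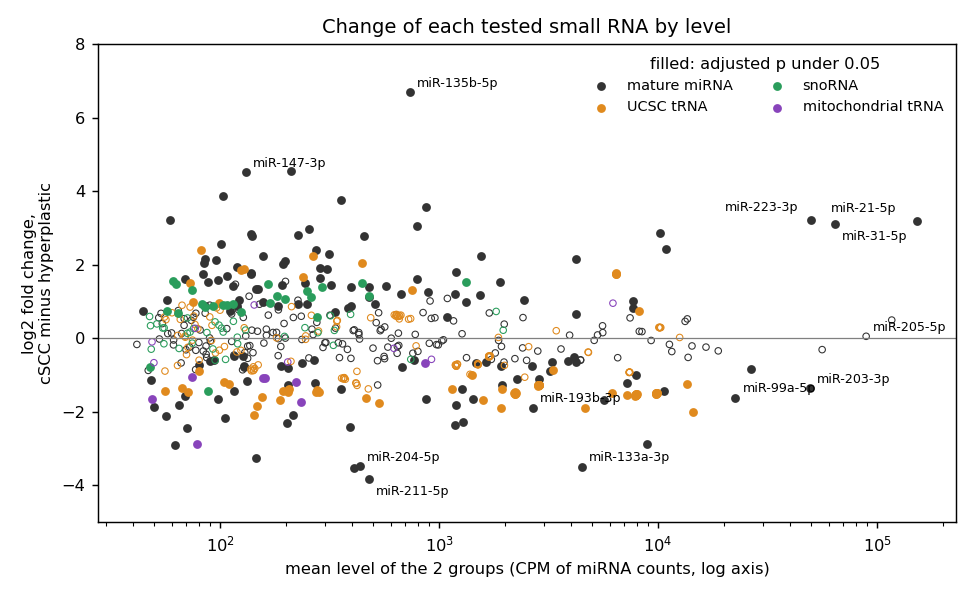
Log2 fold change between cSCC and hyperplastic skin (vertical axis) against the mean level of the 2 groups in CPM (horizontal log axis) for the tested miRNAs, tRNA entries, snoRNAs and mitochondrial tRNAs; filled points passed an adjusted p of 0.05. miR-135b-5p stands highest at 6.68, miR-21-5p, miR-31-5p and miR-223-3p combine a high level with a log2 fold change above 3, and miR-205-5p lies near 0.

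The widest rise among all tested features was that of miR-135b-5p (chromosome 1, 134094679 to 134094703; mm9, as deposited), a miRNA raised in several epithelial cancers. Its levels were 8.76, 11.7, 12.5, 16.1 and 21.2 CPM in hyperplastic libraries 1, 2, 5, 7 and 8, against 1755, 1085, 529, 3421 and 464 CPM in cSCC libraries 1, 2, 3, 4 and 6. Every cSCC library was above every hyperplastic one, and the cSCC libraries spread over a range far wider than that of the controls. The means were 14.1 ± 4.78 and 1451 ± 1220 CPM (SD, n = 5 each; log2 fold change 6.68 ± 0.73 (SE), adjusted p = 1.1e-06; 103-fold). Healthy skin stood at 18.8 ± 5.6 CPM and papillomas at 147 ± 119 CPM. The hyperplastic and healthy means lay below the limit of 50 CPM, which miR-135b-5p passed through the tumour libraries. Its place among the rises is therefore partly fixed by that limit.

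miR-21-5p (chromosome 11, 86397621 to 86397644), a miRNA known to repress Pdcd4, had the highest mean level of all miRNAs in cSCC. It measured 35260, 27890, 41980, 7361 and 38840 CPM in the hyperplastic libraries and 260300, 280200, 311900, 320500 and 200700 CPM in the cSCC libraries, in the order given above. Hyperplastic library 7 was lowest, and the lowest cSCC library was still above the highest hyperplastic one. The means were 30270 ± 13800 and 274700 ± 47900 CPM (log2 fold change 3.18 ± 0.37 (SE), adjusted p = 2.06e-06; 9.08-fold). Its other arm, miR-21-3p, went from 116 ± 22.4 to 795 ± 186 CPM (log2 fold change 2.77 ± 0.28 (SE), adjusted p = 5.84e-07), again without overlap.

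miR-31-5p (chromosome 4, 88556517 to 88556540), a miRNA known to promote keratinocyte proliferation, varied more than miR-21-5p within both groups. Its hyperplastic levels were 11970, 17950, 30720, 2459 and 3938 CPM and its cSCC levels 153600, 89370, 111000, 170900 and 50250 CPM. Hyperplastic libraries 7 and 8 were the low ones and library 5 the high one, and all 5 cSCC libraries lay above it. The rise was 8.58-fold (log2 fold change 3.10 ± 0.62 (SE), adjusted p = 0.000453), and that of miR-31-3p 7.3-fold (log2 fold change 2.87 ± 0.52 (SE), adjusted p = 0.000182). Papillomas stood at 29140 ± 19400 CPM of miR-31-5p and healthy skin at 6492 ± 3330 CPM.

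Both arms of miR-210, the miRNA best known as a target of hypoxia-inducible factor, rose. For miR-210-3p the hyperplastic libraries gave 1847, 4894, 3912, 1549 and 4859 CPM and the cSCC libraries 13230, 23030, 13800, 35230 and 6475 CPM, with cSCC library 4 highest (log2 fold change 2.43 ± 0.43 (SE), adjusted p = 0.000141). The 5p arm went from 135 ± 35.8 to 1610 ± 1080 CPM (log2 fold change 3.58 ± 0.48 (SE), adjusted p = 8.1e-06). miR-221-3p and miR-222-3p, neighbours on chromosome X that share a seed and are known to repress the cell cycle inhibitor p27, also rose. miR-222-3p measured 476, 504, 518, 540.3 and 650.0 CPM in hyperplastic skin and 1812, 2670, 965, 2814 and 1044 CPM in cSCC (log2 fold change 1.79 ± 0.33 (SE), adjusted p = 0.000225). miR-221-3p rose 2.89-fold (log2 fold change 1.53 ± 0.38 (SE), adjusted p = 0.00266), and neither overlapped between the groups. In papillomas the pair stood at 908 ± 347 CPM (miR-221-3p) and 601 ± 124 CPM (miR-222-3p), beside hyperplastic means of 974 and 538 CPM.

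miR-7a-5p, known in growth factor receptor signalling, gave 192, 167, 194, 126 and 169 CPM in hyperplastic skin and 419, 4008, 865, 1294 and 477 CPM in cSCC. cSCC library 2 was far above the other 4, all of which were still above every hyperplastic library (log2 fold change 3.06 ± 0.50 (SE), adjusted p = 5.97e-05). Its other arm, miR-7a-1-3p, passed in the main scaling (log2 fold change 0.82 ± 0.22 (SE), adjusted p = 0.00437) but not with total miRNA counts (log2 fold change 0.32, adjusted p = 0.215). Within the miR-34 family, which p53 is known to induce, the pair from one transcript on chromosome 9 rose and the arms of miR-34a did not pass. miR-34c-5p went from 59.5, 117, 60.7, 65.3 and 138 CPM to 176, 386, 739.7, 723 and 286 CPM (log2 fold change 2.39 ± 0.35 (SE), adjusted p = 2.2e-05), and miR-34b-3p from 29.4 ± 4.56 to 173 ± 84.4 CPM (log2 fold change 2.56 ± 0.40 (SE), adjusted p = 3.5e-05). For both, all cSCC libraries stood above all hyperplastic ones.

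**Figure D2:**
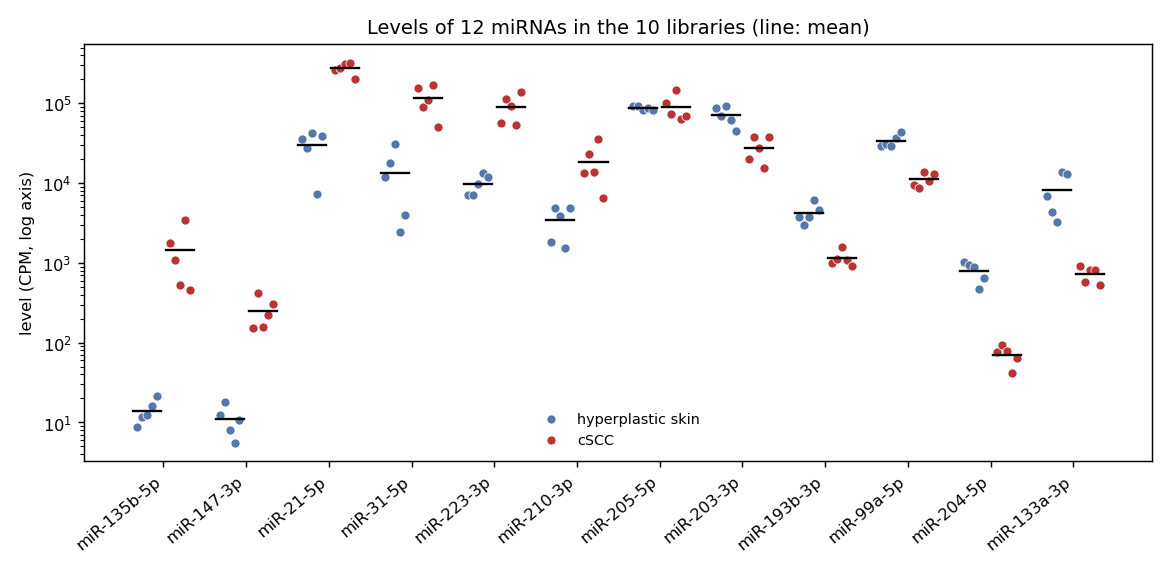
Levels in CPM (vertical log axis) of 12 miRNAs in the 5 hyperplastic and the 5 cSCC libraries, 1 point per library, with the mean of each group as a line. The groups are apart for miR-135b-5p, miR-147-3p, miR-21-5p, miR-31-5p, miR-223-3p and miR-210-3p (cSCC higher) and for miR-203-3p, miR-193b-3p, miR-99a-5p, miR-204-5p and miR-133a-3p (cSCC lower), and overlap for miR-205-5p.

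miRNAs of myeloid cells were among the largest rises: 4 of the 5 tested members of that list were higher in cSCC, with a median log2 fold change of 2.22 beside 0.08 for all miRNAs. A further 3 members lay below the limit on level, and miR-147-3p passed it only through libraries other than the hyperplastic ones. The count of 4 is therefore partly fixed by the limit. miR-223-3p, abundant in neutrophils and macrophages, measured 7077, 7078, 9645, 13200 and 11780 CPM in hyperplastic skin and 56680, 112200, 92720, 53030 and 137400 CPM in cSCC. The lowest cSCC library was thus above the highest hyperplastic one by a wide margin (log2 fold change 3.21 ± 0.45 (SE), adjusted p = 1.35e-05; 9.27-fold). miR-147-3p, induced in activated macrophages, went from 12.5, 18.2, 7.99, 5.61 and 10.6 CPM to 152, 419, 156, 222 and 308 CPM (log2 fold change 4.51 ± 0.54 (SE), adjusted p = 2.78e-06). miR-142-5p, expressed across blood cells, went from 401, 417, 587, 766 and 562 CPM to 1470, 1378, 2604, 3311 and 4001 CPM (log2 fold change 2.22 ± 0.36 (SE), adjusted p = 5.04e-05). The groups did not overlap for these 3.

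The remaining myeloid members did not behave alike. miR-142-3p rose by 1.13 on the log2 scale (adjusted p = 0.0149) with overlapping libraries, and lost the call without cSCC library 4 (0.92, adjusted p = 0.0515), without cSCC library 6 (0.90, adjusted p = 0.0547), without hyperplastic library 1 (0.85, adjusted p = 0.0822) and without hyperplastic library 2 (0.93, adjusted p = 0.065). The call was also lost with total miRNA counts (0.70, adjusted p = 0.111) and with TMM factors from all miRNAs passing filterByExpr (0.49, adjusted p = 0.299), so that under both scalings 3 of the 5 members were higher and 1 lower. miR-511-3p, from an intron of the macrophage receptor Mrc1, had 99.4 ± 34.8 and 55.05 ± 20.7 CPM and did not pass (log2 fold change -0.85 ± 0.42 (SE), adjusted p = 0.0965). It was called lower with total miRNA counts (-1.32, adjusted p = 0.0133), with TMM factors from all miRNAs passing filterByExpr (-1.50, adjusted p = 0.00641) and in a fit of the 2 groups alone (-0.85, adjusted p = 0.0423). The list's summed level was 7732 to 14370 CPM in hyperplastic and 57500 to 142900 CPM in cSCC libraries, most of it miR-223-3p. Lymphocyte and inflammation miRNAs did not share the rise: of 4 tested, 0 were higher and 1, miR-146a-5p, was lower (log2 fold change -1.22 ± 0.34 (SE), adjusted p = 0.0062). Hyperplastic library 8 held 766 CPM of it against 253 to 325 in the other 4, and without hyperplastic libraries 7 and 8 the call was lost (log2 fold change -0.80, adjusted p = 0.0711). Erythroid miRNAs (0 of 3 called) and endothelial ones (0 of 2) did not pass either.

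All 7 tested miRNAs of the large family that lies mainly in an intron of Sfmbt2 on chromosome 2 were higher in cSCC, by log2 1.44 to 2.85, and in 5 of them no library overlapped. The deposited table places 1 of the 7, miR-466i-5p, on chromosome 13. The highest, miR-297a-3p and miR-467a-3p, went from 33.9 ± 2.17 to 244 ± 144 CPM (log2 fold change 2.85 ± 0.40 (SE), adjusted p = 1.25e-05) and from 56.3 ± 14.8 to 397 ± 205 CPM (log2 fold change 2.81 ± 0.36 (SE), adjusted p = 3.96e-06). In cSCC library 3 both were lowest, at 59.3 and 121 CPM. These miRNAs are near-copies of one another, so the 7 are not 7 independent observations, and 71 further members lay below the limit on level. Some passed that limit only through the libraries where they were high, as miR-297a-3p did, so the count of 7 is partly fixed by the limit. On chromosome X, between 50402591 and 50407505, 4 of 5 tested miRNAs were higher.

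Within that X-linked group, miR-503-5p, a miRNA of the miR-15/16 group known to act on G1 cyclins, gave 27.9, 25.4, 33.7, 30.6 and 38.7 CPM in hyperplastic skin and 131, 124, 167, 68.05 and 202 CPM in cSCC (log2 fold change 2.15 ± 0.31 (SE), adjusted p = 1.49e-05). miR-351-5p, which carries the seed of miR-125, gave 52.3, 35.5, 22.7, 33.5 and 32.1 CPM and 115, 115, 246, 115 and 186 CPM (log2 fold change 2.14 ± 0.27 (SE), adjusted p = 3.87e-06). Both were above every hyperplastic library in all 5 cSCC libraries. Their mean hyperplastic levels lay below the limit of 50 CPM, so the count of 4 of 5 higher is partly fixed by that limit. miR-322-3p rose by 1.44 on the log2 scale (adjusted p = 0.00464) with overlap, miR-322-5p did not pass (0.69, adjusted p = 0.0828; without cSCC library 2, 0.85 and 0.0402), and the rise of miR-542-3p (1.05, adjusted p = 0.0454) was lost in the fits without hyperplastic libraries 1, 2, 5, 7 or 8 and without cSCC libraries 1 or 3 (adjusted p 0.0541 to 0.116).

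In the imprinted Dlk1-Dio3 region of chromosome 12, 14 of 102 miRNAs of the table reached the limit on level and 3 of these rose, while 0 fell, no larger a share than the 26.3% of all miRNAs. miR-494-3p measured 61.9, 57.4, 60.1, 48.1 and 47.1 CPM in hyperplastic and 407, 307, 177, 219.5 and 183 CPM in cSCC libraries (log2 fold change 2.24 ± 0.27 (SE), adjusted p = 2.78e-06). miR-409-3p went from 87.4, 96.4, 95.1, 81.04 and 25.9 CPM to 355, 347, 297, 244 and 311 CPM (log2 fold change 2.01 ± 0.33 (SE), adjusted p = 6.52e-05), and miR-541-5p rose by 1.64 (adjusted p = 3.5e-05). The groups were apart in all 3, and the other 11 members did not pass, with a median of the 14 at 0.32 that turned to -0.16 with total miRNA counts (3 higher, 1 lower) and to -0.28 with TMM factors from all miRNAs passing filterByExpr (3 higher, 3 lower). miR-138-5p, best known from brain, had 1049, 1338, 2225, 1348 and 1764 CPM against 8266, 6104, 15680, 1645 and 2633 CPM, so that cSCC library 4 lay within the hyperplastic range (log2 fold change 2.15 ± 0.47 (SE), adjusted p = 0.00107).

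In the miR-183 cluster on chromosome 6, 3 of 4 were higher, led by miR-183-5p (404 ± 102 to 929.7 ± 426 CPM; log2 fold change 1.20 ± 0.29 (SE), adjusted p = 0.00223). cSCC library 6, at 417 CPM, fell within the hyperplastic range of 290 to 501 CPM. Of 14 miRNAs of miR-17-92 and its paralogues, which Myc is known to induce, 3 were higher and 0 lower (median 0.56), no larger a share than the 26.3% of all miRNAs. miR-17-5p went from 4901, 4753, 8530, 3220 and 4019 CPM to 9092, 13600, 12630, 10650 and 5367 CPM (log2 fold change 1.01 ± 0.29 (SE), adjusted p = 0.00774). These calls rested on the scaling: with total miRNA counts 0 of 4 and 0 of 14 were higher and, in the second list, 2 were lower, and miR-17-5p stood at 0.47 (adjusted p = 0.179) and miR-183-5p at 0.63 (adjusted p = 0.0637). Without hyperplastic libraries 7 and 8, 0 of the 14 miR-17-92 members were higher, with miR-17-5p at 0.78 (adjusted p = 0.0866).

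Among the 10 largest rises were also 4 miRNAs with few known roles. miR-5115 went from 21.5, 21.3, 16.9, 17.4 and 9.86 CPM to 427, 488, 686, 258 and 169.5 CPM (log2 fold change 4.54 ± 0.75 (SE), adjusted p = 6.75e-05). miR-5109 rose 14.6-fold (log2 fold change 3.87 ± 0.62 (SE), adjusted p = 5.04e-05), miR-5102 13.4-fold (log2 fold change 3.75 ± 0.57 (SE), adjusted p = 2.81e-05) and miR-1186 9.33-fold (log2 fold change 3.22 ± 0.40 (SE), adjusted p = 3.22e-06). All 4 were above the hyperplastic range in every cSCC library, and papillomas held 242 ± 225 CPM of miR-5115 and 82.9 ± 47 CPM of miR-1186. Every hyperplastic level of miR-5115 lay below the limit of 50 CPM, which it passed through other libraries. Its place among the largest rises is therefore partly fixed by that limit.

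The largest falls were those of a pair with 1 seed and of the muscle miRNAs. miR-211-5p and miR-204-5p lie in introns of the Trpm1 and Trpm3 genes, and Trpm1 is known for its expression in melanocytes. miR-204-5p measured 1016, 951, 884, 475 and 649.5 CPM in hyperplastic skin and 75.7, 94.1, 78.8, 42.2 and 63.8 CPM in cSCC (log2 fold change -3.49 ± 0.34 (SE), adjusted p = 5.84e-07; 11.2-fold lower). miR-211-5p measured 1480, 1215, 1212, 230.2 and 310.2 CPM and 107, 53.8, 48.7, 32.8 and 71.6 CPM (log2 fold change -3.82 ± 0.72 (SE), adjusted p = 0.000266; 14.1-fold lower). Hyperplastic libraries 7 and 8 were low for both, yet above every cSCC library. Healthy skin held 688 ± 275 CPM of miR-204-5p and papillomas 317 ± 93.5 CPM.

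miRNAs of striated muscle were lower in 6 of 7 tested members, with a median log2 fold change of -2.91 beside 0.08 for all miRNAs. miR-133a-3p gave 6963, 4304, 3248, 13640 and 13080 CPM in hyperplastic skin and 905, 584, 825, 809.6 and 522 CPM in cSCC (log2 fold change -3.50 ± 0.43 (SE), adjusted p = 3.08e-06). miR-1a-3p gave 20830, 11280, 9904, 21370 and 14840 CPM and 2605, 1502, 2649, 2899 and 1068 CPM (log2 fold change -2.87 ± 0.51 (SE), adjusted p = 0.000141). For the 6 members that fell, every cSCC library was below every hyperplastic one. The others were miR-133b-3p (-3.53), miR-133a-5p (-3.25), miR-1a-2-5p (-2.91) and miR-1a-1-5p (-2.37), and miR-206-3p did not pass (log2 fold change -1.27 ± 0.61 (SE), adjusted p = 0.0943), though it did without hyperplastic library 5 (-1.54, adjusted p = 0.0357) or cSCC library 3 (-1.64, adjusted p = 0.049). The summed level of the list was 14680 to 41120 CPM in hyperplastic and 2222 to 4540 CPM in cSCC libraries. In bulk biopsies, fewer muscle cells and less of these RNAs per cell cannot be told apart, and the same holds for each cell type named here.

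Smooth muscle miRNAs fell by less. miR-145-5p went from 26280, 27810, 22200, 45310 and 48210 CPM to 17130, 17740, 18520, 19320 and 23170 CPM (log2 fold change -0.82 ± 0.22 (SE), adjusted p = 0.00502), and miR-143-3p from 10590 ± 3410 to 5308 ± 2330 CPM (log2 fold change -0.996 ± 0.27 (SE), adjusted p = 0.00558), both with overlapping libraries. Without hyperplastic libraries 7 and 8 the change of miR-145-5p was -0.41 (adjusted p = 0.117). Fibroblast and mesenchyme miRNAs were lower in 2 of 11, no larger a share than the 21.2% of all miRNAs, and higher in 0. With total miRNA counts 7 of 11 were lower (median -0.89). The widest fall was that of miR-199b-5p (15440 ± 5170 to 5716 ± 1340 CPM; log2 fold change -1.43 ± 0.24 (SE), adjusted p = 8.36e-05). The median of the 11, -0.44, became 0.01 without hyperplastic libraries 7 and 8, with 2 higher and 1 lower. miR-199a-3p and miR-199b-3p have the same 22 bases, so their values (-0.60 and -0.59, neither called) may rest on the same reads. The part of these other cell types in the changes of the remaining miRNAs was not tested.

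**Figure D3:**
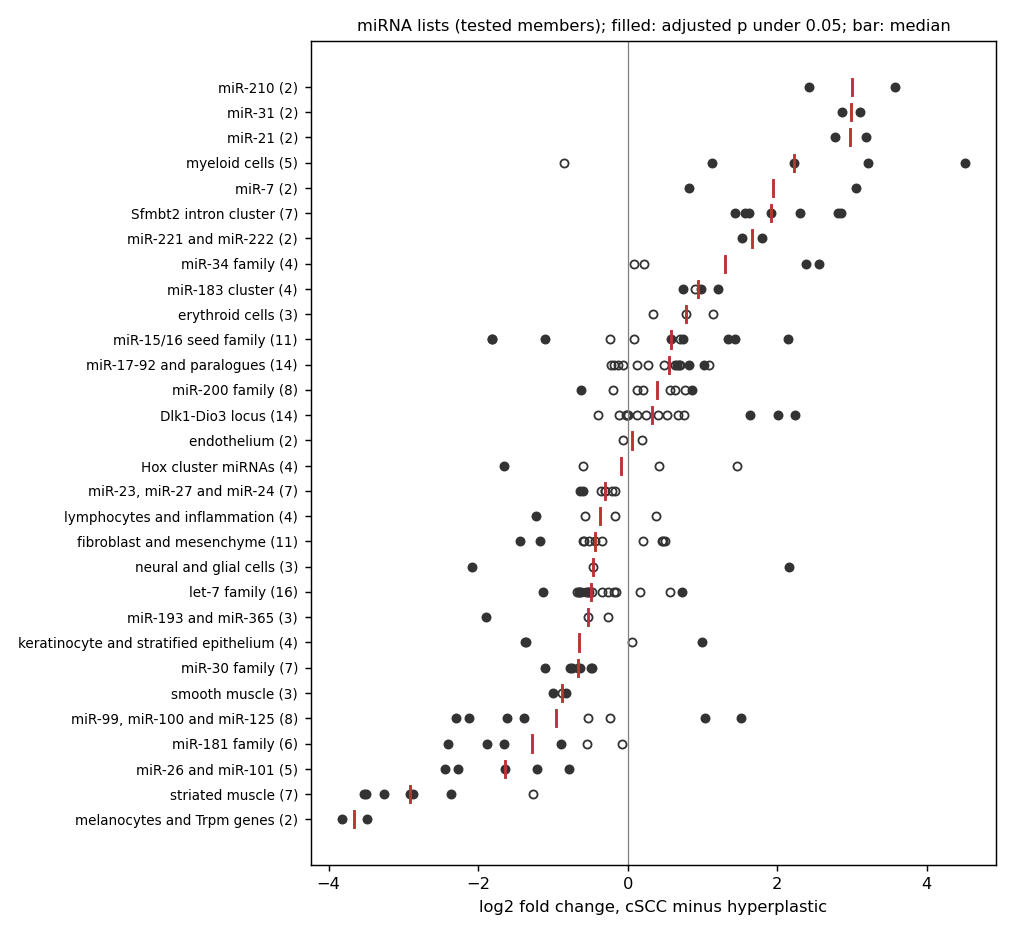
Log2 fold change (horizontal axis) of every tested member of each miRNA list, 1 point per miRNA, filled where the adjusted p was under 0.05, with the median of the list as a bar and the number of members tested in brackets. All members of the Sfmbt2 cluster, miR-21, miR-31 and miR-210 lie to the right as filled points, all 7 of miR-30 and all 5 of miR-26 and miR-101 to the left, and the miR-15/16 and miR-99/100/125 lists hold filled points on both sides.

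The keratinocyte miRNAs separated by arm and by gene. miR-205-5p, second among hyperplastic miRNAs in mean level, measured 92290, 92360, 83030, 87350 and 82240 CPM in hyperplastic skin and 100400, 73620, 146300, 63520 and 69550 CPM in cSCC. The cSCC libraries spread to both sides of the narrow hyperplastic range, and the difference did not pass (log2 fold change 0.05 ± 0.20 (SE), adjusted p = 0.833). With total miRNA counts its sign turned (-0.47, adjusted p = 0.0352), and it also turned, without a call, when any one of hyperplastic libraries 1 or 2 or cSCC libraries 1 or 3 was left out (-0.22 to -0.03). Its rarer arm, miR-205-3p, rose without overlap (log2 fold change 0.99 ± 0.29 (SE), adjusted p = 0.00765), though not with total miRNA counts (0.46, adjusted p = 0.193) or without hyperplastic libraries 7 and 8 (0.74, adjusted p = 0.0763). miR-203-3p, a miRNA of differentiating keratinocytes known to repress p63, fell: it measured 86860, 70080, 91990, 62530 and 44350 CPM and 19830, 37560, 27910, 15370 and 37530 CPM (log2 fold change -1.36 ± 0.26 (SE), adjusted p = 0.000271; 2.57-fold lower). Its other arm, miR-203-5p, fell by 1.37 on the log2 scale (adjusted p = 0.00242) with overlapping libraries. Healthy skin held 58210 ± 14700 CPM and papillomas 76670 ± 9540 CPM of miR-203-3p.

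The epithelial miR-200 family, which maintains E-cadherin by repressing Zeb1 and Zeb2, was called in 2 of 8 members, and in opposite directions. Both were arms of miR-200a: the 5p arm had 60.4 ± 17.2 and 109.9 ± 50.1 CPM (log2 fold change 0.86 ± 0.31 (SE), adjusted p = 0.0275) and the 3p arm 4728 ± 687 and 3054 ± 1160 CPM (log2 fold change -0.63 ± 0.23 (SE), adjusted p = 0.0309). Both sets of libraries overlapped. The 5p call was lost without any one of hyperplastic libraries 1, 2, 7 or 8 or cSCC libraries 2 or 4 (adjusted p 0.0595 to 0.123), and the 3p call without hyperplastic library 8 or cSCC libraries 3, 4 or 6 (adjusted p 0.0751 to 0.132). Summed over the family, hyperplastic libraries held 7743 to 11990 CPM and cSCC libraries 3756 to 13120 CPM. The defining miRNAs of skin epithelium were thus present in every library of both groups.

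miR-193b-3p and miR-365-3p belong to a list that the study chose, so their direction here is not independent evidence of that choice. miR-193b-3p (chromosome 16, 13449662 to 13449685) measured 3739, 2986, 3751, 6061 and 4550 CPM in hyperplastic and 1000, 1123, 1564, 1083 and 917 CPM in cSCC libraries, without overlap (log2 fold change -1.89 ± 0.21 (SE), adjusted p = 1.57e-06; 3.71-fold lower). Healthy skin held 6566 ± 899 CPM and papillomas 3236 ± 402 CPM. miR-365-3p had 411, 318, 363, 592 and 385 CPM and 225, 447, 320.2, 300.5 and 142 CPM, which overlapped, and did not pass (log2 fold change -0.53 ± 0.28 (SE), adjusted p = 0.117). With total miRNA counts it was lower by -1.03 (adjusted p = 0.0029), and without cSCC library 2 by -0.75 (adjusted p = 0.0364).

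The family of the seed ACCCGUA split. miR-99a-5p, from chromosome 16, measured 29580, 30620, 28870, 36990 and 43750 CPM in hyperplastic skin and 9412, 8747, 13650, 10750 and 12930 CPM in cSCC (log2 fold change -1.61 ± 0.19 (SE), adjusted p = 2.06e-06). miR-100-5p, from chromosome 9, measured 1500, 1528, 1697, 2146 and 2324 CPM and 729.6, 627, 920.4, 602 and 629 CPM (log2 fold change -1.39 ± 0.20 (SE), adjusted p = 1.38e-05). Both were lower in every cSCC library, whereas miR-99b-5p, from chromosome 17, was higher in every one: 1457, 1368, 1815, 1736 and 1659 CPM against 2906, 3090, 2789, 3709 and 3948 CPM (log2 fold change 1.03 ± 0.21 (SE), adjusted p = 0.00067). The 3p arms went the same ways, miR-99a-3p by -2.30 and miR-99b-3p by 1.51, and they too share a seed, AAGCUCG. With TMM factors from all miRNAs passing filterByExpr, miR-99b-5p stayed positive at 0.40 without passing (adjusted p = 0.195).

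A split by gene was also seen in the miR-15/16 group, whose members are known to restrain cyclins and Bcl2. The neighbours miR-195-5p and miR-497-5p on chromosome 11 fell: miR-195-5p from 3681, 3808, 4073, 3741 and 4224 CPM to 1761, 1378, 2333, 1921 and 1662 CPM (log2 fold change -1.11 ± 0.21 (SE), adjusted p = 0.000249) and miR-497-5p from 1724, 2074, 1434, 1426 and 2612 CPM to 464, 251, 704, 524 and 683 CPM (log2 fold change -1.82 ± 0.28 (SE), adjusted p = 2.75e-05). Neither overlapped between the groups. miR-15b-5p, with the same seed AGCAGCA, went the other way by a small amount (log2 fold change 0.57 ± 0.22 (SE), adjusted p = 0.0347) that was lost in most other fits. Dropping hyperplastic libraries 1, 2, 7 or 8 or cSCC libraries 2, 3 or 4 one at a time gave it an adjusted p of 0.0511 to 0.111. Among the tested miRNAs with a sequence in use here, 33 seeds were shared by 2 or more (93 miRNAs in all). Of these seeds, 9 held higher calls only, 13 lower calls only, 3 both and 8 none. The tally leaves out the 53 tested miRNAs without a matched sequence and some matched ones, such as miR-133a-3p. Further seeds and members are therefore missing from it.

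Several families fell together. All 7 tested miRNAs of the miR-30 family were lower, by -0.48 to -1.11, and in each the 5 cSCC libraries lay below the 5 hyperplastic ones. Of the 7, 5 were called with TMM factors from all classes, 5 without hyperplastic libraries 7 and 8, and 3 with a replicate block. miR-30d-5p measured 2343, 2378, 2213, 2503 and 2655 CPM against 1381, 1620, 1486, 1249 and 1372 CPM (log2 fold change -0.77 ± 0.16 (SE), adjusted p = 0.000786). All 5 of miR-26 and miR-101, miRNAs known to repress Ezh2, were lower without overlap, 4 of them called without hyperplastic libraries 7 and 8 and with a replicate block. miR-26a-5p went from 9350, 9341, 7502, 11880 and 12290 CPM to 4523, 3818, 5470, 4250 and 3593 CPM (log2 fold change -1.22 ± 0.19 (SE), adjusted p = 2.87e-05), and miR-101a-3p from 1834, 1291, 1433, 2928 and 3159 CPM to 534, 237, 378, 453 and 610.5 CPM (log2 fold change -2.27 ± 0.30 (SE), adjusted p = 7.77e-06). miR-101c, which fell by 2.44 on the log2 scale, is close in sequence to miR-101a-3p. Counts over such families are counts of entries, not of independent miRNAs.

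miR-181 members were lower in 4 of 6, led by miR-181c-5p from chromosome 8 (670.5, 696, 657, 623 and 657 CPM to 157, 74.2, 97.96, 123 and 172 CPM; log2 fold change -2.40 ± 0.25 (SE), adjusted p = 5.84e-07). miR-181a-5p, a miRNA known from lymphocyte development, fell less (-0.89, adjusted p = 0.0101). Of the let-7 family, known to repress Ras and Hmga2, 4 of 16 were lower, near the 21.2% of all miRNAs, and 1 higher, with a median of -0.49. The count rested on the scaling, since 12 of 16 were lower with total miRNA counts, and 1 was lower without hyperplastic libraries 7 and 8. miR-10b-5p, from a Hox cluster, fell from 2175 ± 613 to 689 ± 138 CPM (log2 fold change -1.66 ± 0.22 (SE), adjusted p = 7.77e-06), and miR-338-3p from 347 ± 154 to 82.3 ± 14 CPM (log2 fold change -2.08 ± 0.30 (SE), adjusted p = 1.38e-05). The list of miR-23, miR-27 and miR-24 held 2 lower calls of 7, not far from the 21.2% of all miRNAs (7 of 7 with total miRNA counts). Both calls were small (miR-27b-3p -0.64, miR-24-1-5p -0.60) and both were lost without hyperplastic libraries 7 and 8 (adjusted p = 0.0839 and 0.153). The call of miR-24-1-5p was also lost without hyperplastic library 7 or 8 alone or cSCC library 2 (adjusted p 0.067 to 0.0761).

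Of the 5 most abundant miRNAs over the 10 libraries, only miR-21-5p and miR-31-5p passed. miR-29a-3p, known to repress collagens, gave 76950, 71600, 69740, 141600 and 124300 CPM and 128100, 126600, 163900, 179700 and 83370 CPM (log2 fold change 0.49 ± 0.24 (SE), adjusted p = 0.0926). Hyperplastic libraries 7 and 8 were the high ones of their group, and without both the difference was 0.91 (adjusted p = 0.00879). Without hyperplastic library 7 alone it was 0.67 (adjusted p = 0.0364), and without cSCC library 6 it was 0.65 (adjusted p = 0.0333). miR-24-3p gave 54630, 61400, 64050, 71460 and 58900 CPM and 39850, 45830, 51100, 63380 and 50210 CPM (log2 fold change -0.31 ± 0.16 (SE), adjusted p = 0.11), and without hyperplastic library 1 or cSCC library 4 it passed as lower (-0.51, adjusted p = 0.0258, and -0.46, adjusted p = 0.0294). With total miRNA counts it was lower by -0.81 (adjusted p = 0.000157).

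Both arms were tested for 58 hairpins. In 16 both were called in the same direction, in 14 only 1 arm was called, in 26 neither, and in 2 the arms were called in opposite directions. Over the 58 hairpins the changes of the 2 arms had a Pearson r of 0.857 and a Spearman rho of 0.768, given as a description of arms that share libraries and precursors. The exceptions were miR-200a, above, and let-7b, whose 5p arm fell (log2 fold change -0.65 ± 0.25 (SE), adjusted p = 0.04) while its 3p arm rose from 253, 219.8, 268, 255 and 265 CPM to 408, 575, 396, 342 and 356 CPM (log2 fold change 0.72 ± 0.20 (SE), adjusted p = 0.00637). The ratio of 5p to 3p thus went from 15.9 to 6.13 for let-7b. The let-7b-5p call was lost without hyperplastic libraries 7 or 8 or cSCC libraries 2 or 6 (adjusted p 0.0779 to 0.116), and let-7b-3p did not pass with total miRNA counts (0.23, adjusted p = 0.404).

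By position, tested miRNAs with different hairpin names lay within 10 kb of each other in 37 groups. In 13 of the 37 all calls were higher, in 10 lower, in 3 both and in 11 there was none. The 13 include miR-7a-5p with miR-7a-1-3p (66 bases) and the 10 include miR-125b-5p with miR-125b-2-3p (63 bases). Each of these groups spans only 1 hairpin, so the counts of hairpin groups are slightly too high. miR-99a (chromosome 16, 77599184 to 77599939) and miR-99b (chromosome 17, 17967157 to 17967805) each lie beside a let-7 miRNA, and neither neighbour passed (let-7c-5p -0.65, let-7e-5p 0.16). The mature let-7c-5p also comes from chromosome 15, so its level is not that of the neighbour of miR-99a alone. The 3 arms of miR-181c and miR-181d on chromosome 8 (86702657 to 86702845) all fell.

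The makeup of the libraries by RNA class differed between the 2 groups. Mature miRNAs took 59.97%, 56.57%, 65.31%, 68.24% and 51.93% of all counts in the hyperplastic libraries and 77.35%, 74.93%, 74.16%, 77.62% and 79.62% in the cSCC libraries. The groups did not overlap, and the means were 60.4 ± 6.56% and 76.74 ± 2.2% (SD, n = 5 each). Nuclear tRNA entries were the counterpart, with 37.43%, 40.94%, 32.4%, 29.06% and 45.86% against 20.08%, 21.44%, 23.37%, 19.32% and 17.76%, or 37.14 ± 6.68% and 20.4 ± 2.13%. Both differences had an exact permutation p of 0.00794 (two-sided, n = 5 against 5), the smallest that this design can give, and 0.0212 after adjustment over 8 classes. Leaving out hyperplastic libraries 7 and 8 gave differences of 16.12 and -16.53 percentage points. With the smaller tail doubled, each had an exact permutation p of 0.0357, the smallest that 3 against 5 libraries can give. An exact permutation test on absolute differences gave each 0.0714 after adjustment over the 8 classes, which is not an adjustment of 0.0357. Mature miRNAs took 67.55 ± 4.72% of counts in healthy skin and 71.13 ± 9.3% in papillomas, and tRNA entries 29.27 ± 4.83% and 25.88 ± 9.07%. Both groups thus had means between those of hyperplastic skin and cSCC. Depth also differed between the compared groups without overlap, so lesion and depth cannot be told apart for these shares. Shares of one total are not independent. As a ratio to mature miRNA counts, tRNA counts were lower by -0.364 (adjusted exact permutation p = 0.0556). That is the smallest adjusted p open to a class that alone reaches the smallest exact p. Not passing there does not show that the difference was absent on this scale.

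The minor classes moved by small amounts. snoRNAs took 0.895 ± 0.0952% of counts in hyperplastic skin and 1.19 ± 0.185% in cSCC (adjusted exact permutation p = 0.0381), and snRNAs 0.0231 ± 0.00485% and 0.0441 ± 0.00917% (adjusted exact permutation p = 0.0212). The snRNA call was lost as a ratio to miRNA counts (adjusted exact permutation p = 0.0741) and without hyperplastic libraries 7 and 8 (0.143). The snRNA shares themselves did not overlap, with 0.0296% the highest in hyperplastic skin and 0.0306% the lowest in cSCC. With so few libraries left, the adjusted test has little room to pass. The snoRNA call was lost when any one of 8 of the 10 libraries was left out (adjusted p 0.0508 to 0.0635) and as a ratio to miRNA counts (adjusted p = 0.619). Mitochondrial tRNAs, ribosomal RNAs and piRNAs did not differ beyond their spread (adjusted exact permutation p = 0.825 for each).

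**Figure D4:**
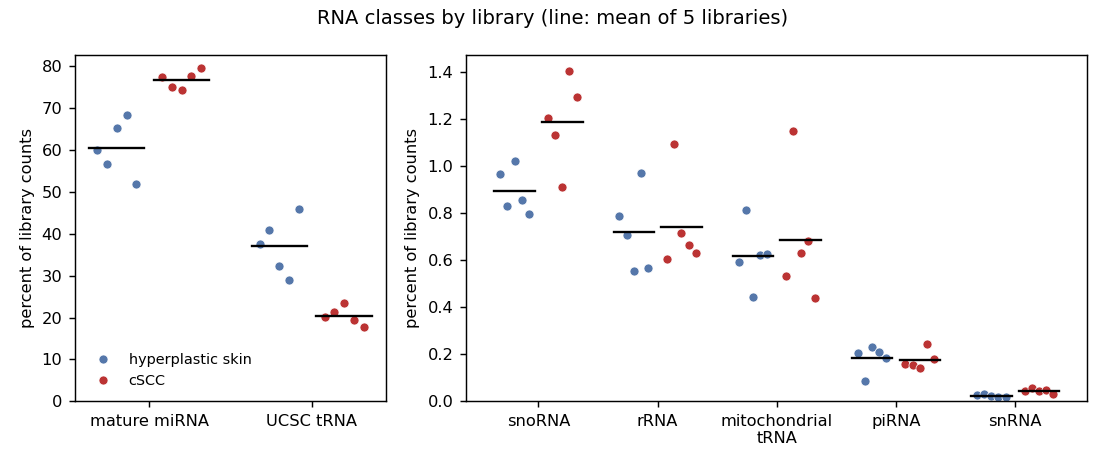
Percent of all counts of a library (vertical axes, on 2 scales) taken by each RNA class, 1 point per library, with the mean of 5 libraries as a line. The 5 cSCC libraries sit at 74.2 to 79.6% for mature miRNAs and 17.8 to 23.4% for tRNA entries, apart from the hyperplastic libraries at 51.9 to 68.2% and 29.1 to 45.9%.

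On the scale of miRNA counts, 59 of the 186 tested tRNA entries were lower in cSCC and 14 higher (median log2 fold change -0.72, beside -0.06 for all features). Many tRNA genes are exact or near-exact copies, so single entries are uncertain, and entries were summed by amino acid and anticodon. Of 43 anticodons with at least 50 CPM in hyperplastic skin, all 5 cSCC libraries lay below all 5 hyperplastic ones in 10 and above in 0, and the other 33 overlapped. GlyGCC, the largest, summed to 113600, 135600, 84560, 103900 and 205800 CPM in the hyperplastic libraries and 56630, 44370, 58920, 50480 and 41630 CPM in the cSCC libraries, 2.55-fold lower in the mean. LysCTT summed to 106800, 97930, 69260, 62870 and 211600 CPM and 33740, 47180, 52070, 44050 and 22590 CPM, 2.75-fold lower, with hyperplastic library 8 well above the others. The widest gap among the 10 was that of ArgCCG, at 23110 ± 11400 against 5793 ± 1280 CPM, 3.99-fold lower.

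The other 7 of the 10 were GlyCCC (3.04-fold), ArgACG (3.03-fold), TrpCCA (2.82-fold), CysGCA (2.80-fold), GlnCTG (2.59-fold), GluCTC (2.47-fold) and IleAAT (2.15-fold). Of the 14 most abundant anticodons, ValCAC, ValAAC and AspGTC had a higher mean in cSCC. ValCAC summed to 59810, 54070, 43060, 32520 and 56040 CPM in hyperplastic skin and 57940, 76510, 87520, 73330 and 49070 CPM in cSCC. Its libraries overlapped, as did those of ValAAC, at 36780 ± 7680 against 55590 ± 17100 CPM, and of AspGTC, at 8838 ± 2770 against 12180 ± 5240 CPM. The share of all tRNA counts held by ValCAC was 8.89% in hyperplastic skin and 20.7% in cSCC, and that of GlyGCC 23.3% and 15.1%. Hyperplastic library 8 had the most tRNA, and without it 35 tRNA entries were lower instead of 59. Without hyperplastic libraries 7 and 8 there were 29. With total miRNA counts 115 entries were lower.

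Single tRNA entries with the widest calls were chr11.tRNA1849-TrpCCA (log2 fold change -2.09 ± 0.49 (SE), adjusted p = 0.0017) and chr11.tRNA945-ArgCCG (log2 fold change -2.002 ± 0.56 (SE), adjusted p = 0.00644) among the lower, and chr13.tRNA73-ThrTGT (log2 fold change 2.40 ± 0.58 (SE), adjusted p = 0.00227) and chr13.tRNA68-AlaTGC (log2 fold change 2.22 ± 0.43 (SE), adjusted p = 0.000311) among the higher. The alanine entry had 132, 126, 111, 42.2 and 56.5 CPM in hyperplastic and 228, 561, 702, 466 and 229.5 CPM in cSCC libraries, without overlap.

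**Figure D5:**
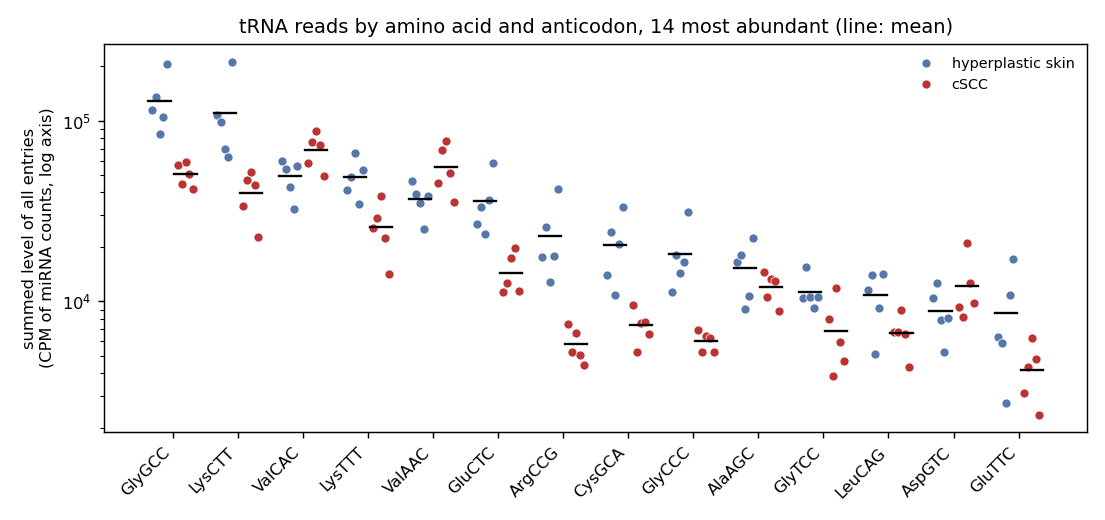
Summed level in CPM of miRNA counts (vertical log axis) of all tRNA entries with one anticodon, for the 14 most abundant anticodons, 1 point per library and a line at the mean of 5. GlyGCC, LysCTT, GluCTC, ArgCCG, CysGCA and GlyCCC are lower in every cSCC library, and ValCAC, ValAAC and AspGTC overlap with higher means in cSCC.

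Of 60 tested snoRNA entries 23 were higher and 2 lower, with a median of 0.42 beside -0.06 for all features. The 2 widest were FR280582 (log2 fold change 1.55 ± 0.33 (SE), adjusted p = 0.000883), whose highest library was cSCC 4 at 177 CPM, and FR406720 on chromosome 1. FR406720 measured 655, 636, 606, 559 and 948 CPM in hyperplastic skin and 2421, 1135, 1465, 2990 and 1785 CPM in cSCC, without overlap (log2 fold change 1.52 ± 0.39 (SE), adjusted p = 0.00366). It lies in a group of 5 tested snoRNAs between 162965525 and 162968514, of which 3 were higher. On chromosome 7 (52378395 to 52382833) 4 of 4 neighbouring snoRNAs were higher, on chromosome 3 (153573527 to 153575168) 3 of 4, and on chromosome 17 (35088958 to 35089254) 2 of 2. These groups were named for their higher calls. Other groups held none, as on chromosome 10 (23505556 to 23506349, 0 of 3) and chromosome 11 (48614368 to 48616708, 0 of 3). The balance of all snoRNA calls depended on the scaling: 7 were higher and 9 lower with total miRNA counts, and 3 higher and 9 lower with TMM factors from all miRNAs passing filterByExpr. Without hyperplastic libraries 7 and 8, 13 were higher.

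The lower snoRNAs were FR140401 on chromosome 4 (log2 fold change -1.43 ± 0.34 (SE), adjusted p = 0.0022) and FR267199 (log2 fold change -0.77 ± 0.29 (SE), adjusted p = 0.0363). The call of FR267199 was lost without hyperplastic library 7 or 8 or cSCC libraries 2, 3, 4 or 6 (adjusted p 0.0526 to 0.183). FR140401 spans the 1 called piRNA entry, FR139333 (log2 fold change -1.56 ± 0.35 (SE), adjusted p = 0.00135), so both values can rest on the same reads.

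Mitochondrial tRNAs were lower in 8 of 16 tested entries and higher in 0, beside 23.2% lower and 21.1% higher over all features. Their summed share of counts did not fall, at 0.6188 ± 0.132% in hyperplastic skin and 0.6872 ± 0.273% in cSCC (adjusted exact permutation p = 0.825). The entries called were not counted under the other scalings. ENSMUST00000082400 (mitochondrial genome, 5192 to 5257) measured 130.1, 168, 106, 211 and 73.98 CPM in hyperplastic skin and 31.1, 3.51, 11.9, 32.8 and 12.9 CPM in cSCC (log2 fold change -2.89 ± 0.54 (SE), adjusted p = 0.000249). ENSMUST00000082406 (7700 to 7764) measured 319.5, 388, 412, 428 and 249.5 CPM and 106, 108, 129.5, 86.4 and 112 CPM (log2 fold change -1.73 ± 0.33 (SE), adjusted p = 0.000272), and neither overlapped. The spliceosomal and ribosomal entries that passed were all higher. The 2 tested snRNA entries rose from 77.98 ± 16.8 to 184 ± 43 CPM (FR395482) and from 120.4 ± 26.1 to 279.8 ± 69.6 CPM (FR171679), without overlap, though neither passed with total miRNA counts (adjusted p = 0.0895 and 0.106) or without hyperplastic libraries 7 and 8 (adjusted p = 0.063 and 0.0745). Of 4 ribosomal entries 3 were higher, led by FR294099 on the mitochondrial genome (65.3, 58.2, 75.6, 67.9 and 61.9 CPM to 178, 582, 420.5, 234 and 202 CPM; log2 fold change 2.30 ± 0.39 (SE), adjusted p = 8.36e-05).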

How the data were processed

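Small RNA was sequenced on the SOLiD platform from size-selected libraries, per the labels' protocols. The deposited table gives raw counts per small RNA feature in 20 libraries, with mm9 coordinates per the submitters' processing notes. An aligner, a strand setting and a rule for multiply matching reads were not given in the sources used here. Columns were mapped by library name, and no column was left unmapped. No 2 libraries held identical counts over 190 pairs.

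One edgeR 4.0.16 quasi-likelihood fit (limma 3.58.1, R 4.3.3) held all 20 libraries with a term per group. Features needed a mean of 50 CPM (relative to mature miRNA counts), and TMM factors came from miRNAs above that limit. The contrast was cSCC minus hyperplastic, two-sided, with Benjamini-Hochberg adjustment over 570 features and a threshold of 0.05. Class shares were compared with an exact permutation test. On counts simulated for this comparison over 570 features, 62% of changes of log2 size 1, 97% of size 2 and 1.08% of unchanged features were called. The simulated counts followed the fitted library sizes, with as many rises as falls. The 1.08% therefore does not cover errors of scaling or features that do not follow depth.

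Alternatives were other scalings (DESeq2 1.42.0 size factors among them), limits on level, DESeq2's Wald test, edgeR's glmTreat, a fit of the 2 groups alone, a replicate block and leaving out each library. Leaving out hyperplastic libraries 7 and 8 together and thinning counts to 1 depth were chosen after seeing the data. The members and lists were chosen with earlier results of these data known. Named features were the 10 largest changes in each direction, the widest of each other class, the most abundant miRNAs and the listed miRNAs that the text describes, and 18 further miRNAs were named after their values were seen. Coordinates are as deposited (mm9), and sequences are from RefSeq (GRCm38.p6).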

Additional observations from a re-analysis of the deposited data

Results flagged for a closer look

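In 11 of 224 groups of 5 libraries, 1 library stood apart from the other 4: its gap to the nearest, divided by the range of the group, was above 0.71. Chance flags about 1 group in 20. Hyperplastic library 8 was the one in 5 of the 11. It was high for miR-146a-5p (766 against 325 CPM in the next library, ratio 0.86), miR-125b-2-3p (148 against 86.6 CPM, 0.755) and the snoRNA FR406720 (948 against 655 CPM, 0.753), and low for miR-409-3p (25.9 against 81.0 CPM, 0.782) and miR-541-5p (96.9 against 139 CPM, 0.718). Hyperplastic library 7 was high for miR-143-3p (16570 against 9839 CPM, 0.79).

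cSCC library 2 was high for miR-7a-5p (4008 against 1294 CPM, 0.756), for let-7b-3p (575 against 408 CPM, 0.717) and in its share of ribosomal RNA (1.09% against 0.717%, 0.775). cSCC library 4 was high for the snoRNA FR280582 (177 against 83.6 CPM, 0.807) and the piRNA FR139333 (70.0 against 38.0 CPM, 0.735).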

How the results depend on the processing

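Under total miRNA counts, TMM from all miRNAs passing filterByExpr, filterByExpr alone, no limit on level, a limit of 200 CPM and glmTreat for a log2 change over 1, in that order, higher calls were 71, 63, 477, 575, 57 and 40 over all features (120 as reported above), 51, 47, 358, 403, 41 and 35 for miRNAs (77), 9, 9, 36, 36, 8 and 3 for tRNA entries (14) and 7, 3, 61, 67, 7 and 0 for snoRNAs (23). Lower calls under the first 2 and glmTreat were 261, 273 and 27 over all features (132), 121, 131 and 24 for miRNAs (62) and 115, 116 and 1 for tRNA entries (59). With the replicate block, lower calls were 77 over all features and 27 for tRNA entries, and higher snoRNAs 9. Without hyperplastic libraries 7 and 8 they were 84, 29 and 13. Only numbers 1 and 2 occur in both groups, and these same-numbered libraries correlated at 0.029 and 0.021. Differently numbered ones ranged from -0.194 to 0.213. These 2 values are too few to tell whether the numbers pair samples. Leaving out 1 library gave 103 to 127 higher and 97 to 158 lower over all features, 69 to 83 and 52 to 74 for miRNAs, 35 to 79 lower tRNA entries and 16 to 24 higher snoRNAs.

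miR-29a-3p turned to -0.003 and -0.1458, and miR-205-5p to -0.4683 and -0.5739, under the first 2 scalings. miR-205-5p was -0.0065 with DESeq2 size factors. miR-15b-5p turned to -0.0438 with TMM from all miRNAs passing filterByExpr. As ratios to miRNA counts, the class differences were -0.364 (tRNA), 0.0005771 (snoRNA), 0.0001909 (snRNA), 0.0001779 (other miRNA entries), -0.001421 (mitochondrial tRNA) and -0.002134 (rRNA). Without hyperplastic libraries 7 and 8 they were 16.12 (miRNA), -16.53 (tRNA), 0.2484 (snoRNA), 0.01786 (snRNA), 0.01384 (other miRNA entries) and 0.001061 (piRNA) percentage points. Leaving out 1 library gave -0.2202 to 0.1624 for miR-205-5p, and, in percentage points of counts, 0.2396 to 0.3627 for snoRNAs, 0.01219 to 0.01886 for other miRNA entries, -0.04646 to 0.1302 for mitochondrial tRNAs, -0.06257 to 0.08883 for rRNA and -0.03252 to 0.003344 for piRNAs. The causes were not tested.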
